A study of Homo sapiens with 6 samples.

Results

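Ion channel genes were examined in H226 cells, an established human cell line labelled as lung squamous carcinoma, 48 h after transient transfection with an antisense oligonucleotide. The members were taken by name from the deposited table of read counts. A gene entered if its name held no hyphen and began with KCN, CACN, CLCN, TRPC, TRPM, TRPV or PIEZO, or was SCN followed by a number and A or B. Of the 17222 gene names in the table, 68 met the rule, of which 34 were potassium channel genes (KCN names) and 34 belonged to the other families. The 3 names KCNQ1OT1, KCNRG and TRPC4AP met the rule but encode no channel subunit.

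The ASO_LINC group received ASO_LINC#3, an antisense oligonucleotide against the long noncoding RNA SWINGN, and the ASO_CTRL group received a control oligonucleotide. The methods of the study give a concentration of 50 nM for such transfections. There were 3 libraries in each group, both groups were cells of the same line, and the knockdown rested on a single oligonucleotide. The labels do not say whether the libraries came from separate cultures. The study states in general that its experiments were biological triplicates, unless a legend says otherwise. The p-values measure the spread between these libraries, and the labels do not settle whether it is technical. The methods describe this RNA-seq as made from BJ cells, which are fibroblasts, whereas the labels of all 6 libraries give H226. The results text and a figure legend of the study also give H226. The RNA of SWINGN was not analysed here, so the depletion itself was not checked.

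An ion channel is a membrane protein with a pore that lets particular ions run down their electrochemical gradient. Potassium channels draw the membrane towards negative potentials, voltage-gated sodium and calcium channels depolarise it, and calcium entering through channels is also an intracellular messenger. Pore-forming (alpha) subunits assemble with auxiliary subunits that set trafficking and gating. In epithelial cells and the tumours derived from them, channels are known for roles in membrane potential, cell volume, calcium entry and the sensing of mechanical force.

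Between 3686828 and 10546786 reads per library lay on genes, and the members together held 3412 to 8685 of them. The shallowest library was ASO_LINC replicate 3. Over all genes it also stood apart from the other ASO_LINC libraries, with a chi-square per degree of freedom of 14.4 and 15.6 against them and 2.63 between those, while pairs of ASO_CTRL libraries gave 7.45 to 13.1. Results that turn on this library are therefore given with and without it. Of 8 markers of squamous epithelium, TP63, SOX2, KRT14, DSG3 and KRT13 had no row in the table, and KRT5 averaged 103 CPM (counts scaled to a common total of reads on genes per library) in ASO_CTRL. All 8 genes listed as mesothelial were present, with a summed level of 10576 to 11638 CPM in ASO_CTRL and 6134 to 10646 CPM in ASO_LINC. Most of this sum came from the keratins KRT18 (5086 CPM on average in ASO_CTRL and 3688 CPM in ASO_LINC), KRT7 (3822 and 2792 CPM) and KRT8 (1187 and 945 CPM). The sum therefore follows these keratins and is no measure of mesothelial cells. Each of the remaining genes of this list averaged 601 CPM or less. Among the 8, CALB2 (601 CPM on average in ASO_CTRL and 154 CPM in ASO_LINC) and LRRN4 (143 and 47.6 CPM) were lower in ASO_LINC past the thresholds given below. The 3 fibroblast markers found out of 6 summed to 397 to 494 CPM in ASO_CTRL and 222 to 253 CPM in ASO_LINC, with COL1A1 and PDGFRB lower past the same thresholds. Of the markers of excitable cells, 2 of 5 neuronal and 1 of 6 muscle genes were in the table, each averaging under 3 CPM in both groups, and none of the 4 leukocyte and 3 endothelial markers was. Whether the mesothelial and fibroblast markers have a part in the channel results was not tested. In bulk RNA, fewer cells of a kind and less RNA per cell cannot be told apart.

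The genes on which the results turn most are KCND3, KCNK1 and PIEZO2, which passed both thresholds in every fit made. They are shown here by the RefSeq sequence around their start sites, 250 bases before to 50 bases after, on GRCh38.p14, so that the base composition that these windows share can be seen. Capitals mark a match to a core hypoxia-response motif, ACGTG or GCGTG, or its reverse complement CACGT or CACGC.
KCND3 (chr1:111989619-111989918, minus strand): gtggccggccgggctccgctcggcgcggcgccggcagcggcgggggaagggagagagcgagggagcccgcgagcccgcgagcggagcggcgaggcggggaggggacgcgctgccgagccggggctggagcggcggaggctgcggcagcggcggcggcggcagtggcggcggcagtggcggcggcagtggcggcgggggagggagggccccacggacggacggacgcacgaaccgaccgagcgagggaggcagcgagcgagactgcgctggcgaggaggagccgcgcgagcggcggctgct
KCNK1 (chr1:233613856-233614155, plus strand): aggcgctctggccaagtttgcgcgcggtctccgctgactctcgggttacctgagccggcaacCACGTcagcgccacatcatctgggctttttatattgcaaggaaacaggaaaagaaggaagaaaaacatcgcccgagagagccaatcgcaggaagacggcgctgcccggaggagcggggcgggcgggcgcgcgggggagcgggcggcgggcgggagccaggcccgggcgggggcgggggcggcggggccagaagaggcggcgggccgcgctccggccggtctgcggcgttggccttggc
PIEZO2 (chr18:11149520-11149819, minus strand): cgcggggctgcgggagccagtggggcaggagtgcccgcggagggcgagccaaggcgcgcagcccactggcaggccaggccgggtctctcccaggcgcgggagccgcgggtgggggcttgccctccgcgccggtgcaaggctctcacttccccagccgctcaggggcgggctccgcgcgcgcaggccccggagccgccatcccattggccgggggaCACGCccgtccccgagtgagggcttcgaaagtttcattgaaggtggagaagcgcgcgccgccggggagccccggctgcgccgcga

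The window of KCND3 held none of the motifs searched and had a GC content of 81.7%, with 53 CpG dinucleotides. That of KCNK1 had 70.7% GC, 38 CpG and a match starting 188 bases before the start site. That of PIEZO2 had 76.7% GC, 38 CpG and a match starting 35 bases before it. Such GC-rich windows were usual among the members. Of the 68 members, 48 had a window in the RefSeq table, with a median GC content of 70% and a median of 28.5 CpG, against 58.3% and 14 over all 27305 windows. The hypoxia-response core was found in 23 of the 48 windows (47.9%) and in 48.4% of all windows. The AP-1 motif TGAGTCA or its reverse complement TGACTCA was found in 0 of 48 windows and in 4.92% of all, and the cAMP-response motif TGACGTCA, which reads the same on both strands, in 1 of 48 and in 1.98% of all. The hypoxia-response forms ACGTG and CACGT hold the letters ACGT, as the cAMP-response motif does. The same run of ACGT cannot be part of both. A match is a run of letters and not a bound site.

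Of the 68 members, 46 had enough reads for the test, 22 potassium channel genes and 24 others. A gene was called when its Benjamini-Hochberg adjusted p from the edgeR quasi-likelihood test over all 14660 genes tested was below 0.01 and its log2 fold change lay beyond 0.5 in either direction. By this measure 5 members were called. KCND3, KCNN2 and PIEZO2 fell, and KCNG1 and KCNK1 rose. Among all genes tested 7.54% were called, 4.91% higher and 2.63% lower in ASO_LINC. The called share was 18.2% (4 of 22) for potassium channel genes and 4.17% (1 of 24) for the other channel genes. With so few genes, 1 call moves either share by several percentage points, and the difference between the groups was not tested.

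The median log2 fold change was −0.02 over the tested members, −0.01 over the potassium channel genes and −0.06 over the others, beside −0.00 over all genes tested. Members went both ways, 20 with higher and 26 with lower values in ASO_LINC. The median size of the change irrespective of direction was 0.43 for the members and 0.31 for all genes. A log2 fold change beyond 1 was found in 12 of 46 members, beside 8.23% of all genes. The 5 called members were among these 12, and others, such as CACNG4 and KCNJ4, had only 2 to 8 reads per ASO_LINC library. Low counts widen the spread of fold changes, and the members were not matched to all genes by abundance. The CPM values of the groups did not overlap in 19 of 46 members (41.3%), 10 potassium channel genes and 9 others, beside 36.1% of all genes. Of these 19, 8 were higher and 11 lower in ASO_LINC, beside 18.7% and 17.3% of all genes. At an adjusted p below 0.05 alone, 13 of 46 members passed, beside 18.0% of all genes.

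**Figure D1:**
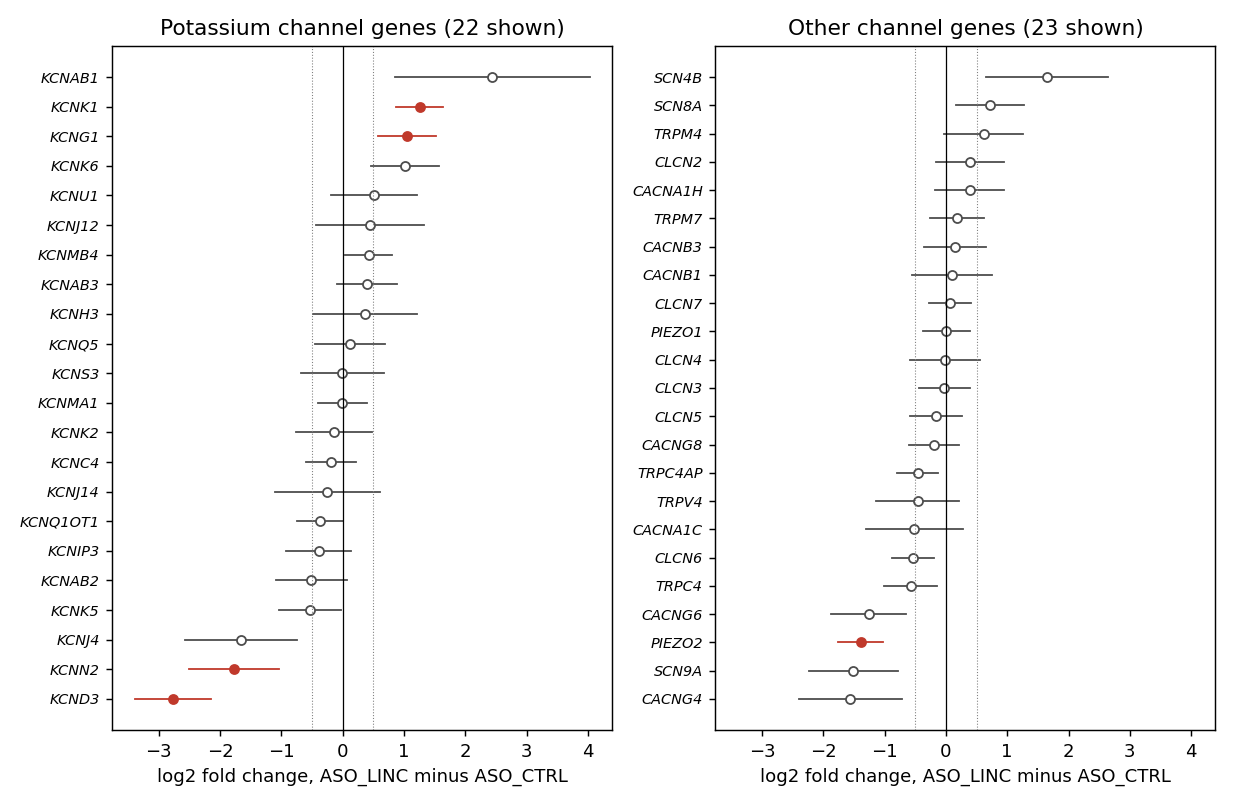
The log2 fold change (ASO_LINC minus ASO_CTRL, horizontal axis) of the 22 tested potassium channel genes (left) and of 23 tested other channel genes (right), with its 95% confidence interval from edgeR. Filled red points are the 5 called genes and dotted lines mark log2 fold changes of 0.5 in either direction. Most open points lie close to 0, and KCND3 lies lowest of all at −2.77.

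Voltage-gated potassium (Kv) pore subunits form channels that open on depolarisation. Of 13 in the table, 6 were tested, and 1 rose and 1 fell. KCND3 encodes Kv4.3, which carries a fast, transient outward current known best from heart and brain. It lies at chr1:112313284-112532290 on the minus strand (GRCh37, as are all gene positions that follow). Its level was 26.9, 22.0 and 26.2 CPM in the ASO_CTRL libraries and 2.50, 3.08 and 6.24 CPM in the ASO_LINC libraries. All 3 ASO_LINC values lay far under the lowest control, and replicate 3 was the highest of them. KCND3 was 6.82-fold lower, a log2 fold change of −2.77 (95% confidence interval −3.39 to −2.15, adjusted p = 0.000146, edgeR quasi-likelihood test). Against the control mean, the 3 ASO_LINC libraries differed by −3.18, −2.90 and −1.95 on the log2 scale. Without ASO_LINC replicate 3 the log2 fold change was −3.18. The counts behind these values were 128 to 275 reads per ASO_CTRL library and 17 to 23 per ASO_LINC library.

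An exon of KCND3 overlaps one of DDX20, an RNA helicase gene on the opposite strand, and the strand setting of the read counting is not given in the sources used here. DDX20 was measured at 49.8, 38.2 and 46.9 CPM in ASO_CTRL and at 24.2, 27.9 and 24.9 CPM in ASO_LINC. It was called lower as well, by 0.81 on the log2 scale (adjusted p = 0.00558, edgeR quasi-likelihood test). Its decrease was 1.75-fold, against 6.82-fold for KCND3. How many reads the overlap adds to either gene was not tested.

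KCNG1 encodes Kv6.1, an electrically silent subunit that forms no working channel on its own. It lies at chr20:49620193-49639644, minus strand. KCNG1 measured 7.004, 5.68 and 6.96 CPM in ASO_CTRL and 13.96, 15.9 and 10.6 CPM in ASO_LINC. The groups did not overlap, and ASO_LINC replicate 3 lay nearest to the controls. It was 2.06-fold higher, a log2 fold change of 1.05 (95% confidence interval 0.58 to 1.51, adjusted p = 0.00759, edgeR quasi-likelihood test). When libraries were left out in turn the call was kept in 1 of 6 fits, the one without ASO_LINC replicate 3, and the largest adjusted p was 0.0376.

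KCNH5, of the ether-a-go-go family, was too low for the test and is named after its values were seen. It had 5, 5 and 11 reads in ASO_CTRL and 0, 1 and 1 in ASO_LINC (edgeR adjusted p = 0.0556 with no filter on low counts). Each ASO_LINC count lay under every ASO_CTRL count.

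The remaining Kv pore subunits with at least 10 reads in every library were not called. KCNC4 (Kv3.4) measured 15.9, 15.5 and 16.2 CPM in ASO_CTRL and 11.6, 13.7 and 17.1 CPM in ASO_LINC, a log2 fold change of −0.19 (95% confidence interval −0.60 to 0.22). KCNQ5, an M-current subunit, had a log2 fold change of 0.12 (−0.45 to 0.70). KCNH3, of the same family as KCNH5, had one of 0.36 (−0.49 to 1.21). The intervals reach past the size seen in KCNG1 for the last of these, so the 3 values bound a change but do not show that there was none. The log2 ratio of KCND3 to KCNC4, taken within each library and so free of library scaling, was 0.65 ± 0.13 in ASO_CTRL and −1.94 ± 0.42 in ASO_LINC (SD, n = 3 each, exact permutation test, two-sided p = 0.1, the smallest that 3 against 3 allows). In each control library KCND3 had more reads than KCNC4, and in each ASO_LINC library fewer. With KCNC4 at −0.19, this ratio largely restates the decrease in KCND3 and is no separate support for it.

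Auxiliary subunits of Kv channels bind the pore subunits on the cytosolic side. Of 6 in the table, 4 were tested and none was called. KCNAB2 (Kv beta 2) averaged 13.3 ± 1.47 CPM in ASO_CTRL and 9.65 ± 3.88 CPM in ASO_LINC (SD, n = 3 each), a log2 fold change of −0.51 (−1.09 to 0.07). Without ASO_LINC replicate 3 the log2 fold change of KCNAB2 was −0.81 (adjusted p = 0.0128, edgeR quasi-likelihood test), also not a call. KCNAB1 (Kv beta 1), named after its values were seen, measured 1.08, 4.47 and 2.29 CPM in ASO_CTRL and 4.26, 7.53 and 32.3 CPM in ASO_LINC. The groups overlapped and a single library, ASO_LINC replicate 3, was far above the rest. Its log2 fold change was 2.44 (adjusted p = 0.0389, edgeR quasi-likelihood test), and 1.22 without that library (adjusted p = 0.0518).

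KCNIP genes encode KChIP proteins, which bind Kv4 channels such as the one that KCND3 encodes. KCNIP3 had a log2 fold change of −0.39 (−0.92 to 0.14), and KCNIP2 was too low for the test. KCNIP4, named after its values were seen, had 16 reads in ASO_LINC replicate 3 and 0 in each of the other 5 libraries. A count of 0 allows up to 3 reads, which is 0.286 to 0.516 CPM in those libraries, against 4.34 CPM measured in ASO_LINC replicate 3. Such floors cover counting error only. DPP10, a transmembrane partner of Kv4 channels without a KCN name, fell. It measured 16.7, 17.6 and 14.2 CPM in ASO_CTRL and 6.17, 9.41 and 4.88 CPM in ASO_LINC, which is a log2 fold change of −1.21 with an adjusted p of 0.00658 by the edgeR quasi-likelihood test. The call of DPP10 was kept in 2 of 6 fits with a library left out, and the largest adjusted p was 0.0399 (edgeR quasi-likelihood test). DPP10 was the only gene in the table of 6 listed Kv4 and BK partners outside the KCN names. Thus the Kv4.3 pore gene and this partner gene were both lower in all 3 ASO_LINC libraries than in any control.

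Channels opened by intracellular calcium or sodium had the most abundant member. KCNMA1 encodes the pore of the large-conductance BK channel, which opens on both calcium and depolarisation. It measured 209.7, 190.1 and 203.2 CPM in ASO_CTRL and 184.2, 153.8 and 262.7 CPM in ASO_LINC. The groups overlapped, with the highest value of all in ASO_LINC replicate 3. The log2 fold change was −0.01 (95% confidence interval −0.41 to 0.39), and −0.25 without that library. KCNMA1 alone held 41.1% to 53.5% of the reads on potassium channel genes in a library. Per kilobase of its canonical transcript it stood at 32.1 CPM in ASO_CTRL, beside 3.29 CPM per kilobase for KCND3 and 9.49 CPM per kilobase for KCNK1. First strands were primed with dT oligos, so such levels per kilobase are approximate. KCNMB4, a beta subunit that slows the gating of BK channels, measured 11.2, 13.9 and 13.1 CPM in ASO_CTRL and 18.1, 17.3 and 15.5 CPM in ASO_LINC, without overlap. It was not called (log2 fold change 0.42, adjusted p = 0.116, edgeR quasi-likelihood test).

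KCNN2 encodes SK2, a small-conductance channel opened by calcium through calmodulin. It lies at chr5:113391623-113832197, plus strand. KCNN2 measured 3.10, 3.61 and 2.96 CPM in ASO_CTRL and 0.882, 0.856 and 1.08 CPM in ASO_LINC. These were 21 to 31 reads per control library and 4 to 6 per ASO_LINC library, with no overlap. KCNN2 was 3.41-fold lower, a log2 fold change of −1.77 (95% confidence interval −2.50 to −1.04, adjusted p = 0.00515, edgeR quasi-likelihood test). Leaving out libraries in turn kept the call in 1 of 6 fits, again the one without ASO_LINC replicate 3, while the log2 fold change stayed between −1.85 and −1.68. The size of the change was thus steadier than its adjusted p, which reached 0.0332.

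Tandem-pore (K2P) potassium channels are leak channels that are open at rest. All 4 in the table were tested and KCNK1 was called. KCNK1 encodes TWIK-1, and lies at chr1:233749852-233808260, plus strand, where no exon of another annotated gene overlaps it. It measured 19.4, 18.4 and 20.9 CPM in ASO_CTRL and 46.9, 56.1 and 36.6 CPM in ASO_LINC. Every ASO_LINC library was well above every control, and replicate 3 was the lowest of them. KCNK1 was 2.38-fold higher, a log2 fold change of 1.25 (95% confidence interval 0.87 to 1.64, adjusted p = 0.000982, edgeR quasi-likelihood test), and the call was kept in all 6 fits that left out 1 library. Per kilobase its level went from 9.49 to 22.6 CPM.

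KCNK6 (TWIK-2), the closest relative of KCNK1 in the table, measured 3.23, 3.10 and 4.10 CPM in ASO_CTRL and 5.73, 8.39 and 7.59 CPM in ASO_LINC. The groups did not overlap, but with an adjusted p of 0.0184 (edgeR quasi-likelihood test, log2 fold change 1.02) it was not called. KCNK5 (TASK-2) had a log2 fold change of −0.54 (adjusted p = 0.132) and KCNK2 (TREK-1) one of −0.14 (adjusted p = 0.771). Of the 4 genes, 2 thus had higher and 2 had lower values in ASO_LINC, with only KCNK1 past both thresholds.

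Inward rectifiers pass potassium more readily into the cell than out of it. All 3 in the table were tested and none was called. KCNJ14 had a log2 fold change of −0.25 (−1.10 to 0.60). KCNJ4 (Kir2.3), named after its values were seen, measured 2.56, 3.27 and 3.05 CPM in ASO_CTRL and 1.18, 0.342 and 1.36 CPM in ASO_LINC. It did not overlap between groups (log2 fold change −1.66, adjusted p = 0.02, edgeR quasi-likelihood test), on 2 to 8 reads per ASO_LINC library. KCNJ12 has near-identical gene copies, so its counts, 7 to 21 reads per library, are uncertain. KCNQ1OT1, the long noncoding RNA antisense to KCNQ1, measured 56.4, 50.2 and 54.4 CPM in ASO_CTRL and 51.1, 40.6 and 32.5 CPM in ASO_LINC and was not called (log2 fold change −0.36, adjusted p = 0.165). Its exons overlap those of KCNQ1, which had few reads.

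**Figure D2:**
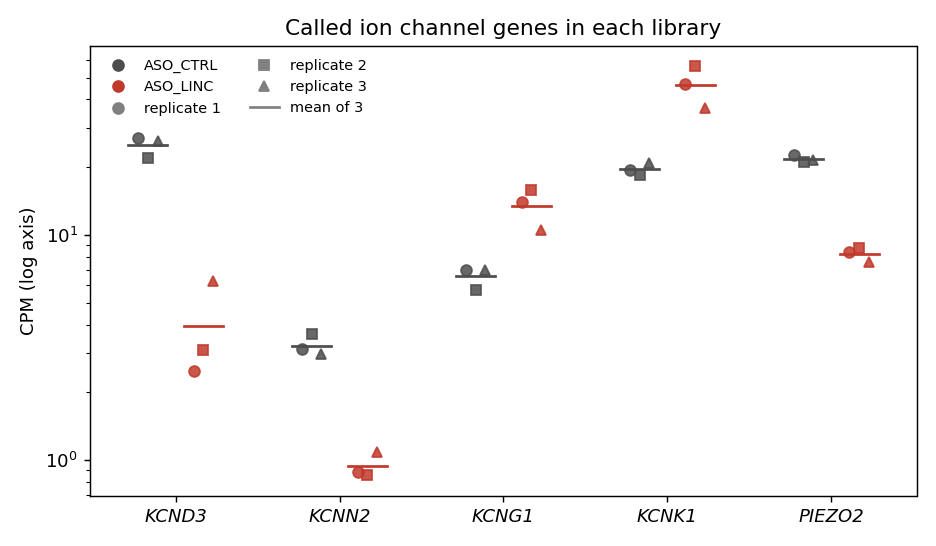
CPM (log axis) of the 5 called channel genes in each ASO_CTRL library (grey) and each ASO_LINC library (red). Symbols give the replicate and bars the mean of 3. In none of the 5 genes do the groups overlap, and ASO_LINC replicate 3 (triangle) lies nearest to the controls for KCND3, KCNN2, KCNG1 and KCNK1, with 6.24 CPM for KCND3.

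Among the other families, the only call fell in the PIEZO family. PIEZO1 and PIEZO2 encode very large cation channels that open when the membrane is stretched. PIEZO2, at chr18:10666480-11149568 on the minus strand, is known best from sensory neurons and PIEZO1 from many tissues. PIEZO2 measured 22.6, 21.0 and 21.6 CPM in ASO_CTRL and 8.38, 8.73 and 7.59 CPM in ASO_LINC. The libraries within each group lay close together and the groups were far apart. PIEZO2 was 2.62-fold lower, a log2 fold change of −1.39 (95% confidence interval −1.76 to −1.02, adjusted p = 0.000423, edgeR quasi-likelihood test). It stayed called in all 6 fits that left out 1 library, with log2 fold changes of −1.43 to −1.35. Genes without symbols on the opposite strand overlap its exons.

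PIEZO1 measured 45.8, 37.5 and 42.0 CPM in ASO_CTRL and 36.3, 37.5 and 53.4 CPM in ASO_LINC. The groups overlapped, with a log2 fold change of 0.01 (95% confidence interval −0.38 to 0.39, adjusted p = 0.981, edgeR quasi-likelihood test), and of −0.18 without ASO_LINC replicate 3. The log2 ratio of PIEZO2 to PIEZO1 within a library was −0.94 ± 0.09 in ASO_CTRL and −2.34 ± 0.41 in ASO_LINC (SD, n = 3 each, exact permutation test, two-sided p = 0.1, the smallest possible). With PIEZO1 at a log2 fold change of 0.01, this ratio restates the decrease in PIEZO2 and is no separate support for it. The ratio was lowest in replicate 3, where PIEZO1 was highest.

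Voltage-gated sodium channels carry the rapid inward current of excitable cells. None of the 4 tested pore and beta subunits was called. SCN8A (Nav1.6) measured 4.44, 3.96 and 5.63 CPM in ASO_CTRL and 9.70, 7.19 and 6.24 CPM in ASO_LINC (log2 fold change 0.72, adjusted p = 0.068, edgeR quasi-likelihood test). SCN9A (Nav1.7), named after its values were seen, measured 7.004, 4.47 and 5.06 CPM in ASO_CTRL and 1.62, 1.54 and 2.98 CPM in ASO_LINC (log2 fold change −1.51, adjusted p = 0.0106). Neither gene overlapped between groups, with SCN8A the higher and SCN9A the lower in ASO_LINC. SCN9A missed the threshold narrowly and was called without ASO_LINC replicate 3 (log2 fold change −1.79, adjusted p = 0.00218). The log2 ratio of SCN9A to SCN8A was 0.23 ± 0.41 in ASO_CTRL and −1.96 ± 0.79 in ASO_LINC (SD, n = 3 each, exact permutation test, two-sided p = 0.1, the smallest possible), and this pair was chosen after its values were seen. An exon of SCN9A overlaps the antisense gene SCN1A-AS1.

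Beta subunits flank the pore and modify its gating. The beta subunit gene SCN4B, named after its values were seen, had 4, 7 and 6 reads in ASO_CTRL and 12, 12 and 13 in ASO_LINC (log2 fold change 1.65, adjusted p = 0.0289, edgeR quasi-likelihood test). SCN4B rested on too few reads to be firm, although no library of one group reached the other.

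Voltage-gated calcium channels consist of an alpha-1 pore with beta, alpha-2-delta and, in some, gamma subunits. Of 3 pore genes 2 were tested and of 9 auxiliary genes 5, and none was called. CACNA1H (the T-type channel Cav3.2) averaged 5.48 ± 1.47 CPM in ASO_CTRL and 6.998 ± 0.58 CPM in ASO_LINC (SD, n = 3 each), a log2 fold change of 0.39 (−0.17 to 0.95). CACNB3 (beta 3), the most abundant, measured 32.1, 41.0 and 27.2 CPM in ASO_CTRL and 31.5, 29.4 and 51.0 CPM in ASO_LINC. Its log2 fold change of 0.15 rested on ASO_LINC replicate 3 and was −0.12 without it.

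A pair of gamma subunit genes, named after their values were seen, lay just short of the threshold. CACNG6 measured 5.52, 9.12 and 6.96 CPM in ASO_CTRL and 2.65, 2.91 and 3.52 CPM in ASO_LINC (log2 fold change −1.26, adjusted p = 0.0106, edgeR quasi-likelihood test). CACNG4 measured 2.42, 1.89 and 2.67 CPM in ASO_CTRL and 0.735, 1.03 and 0.542 CPM in ASO_LINC (log2 fold change −1.56, adjusted p = 0.0182), on 2 to 6 reads per ASO_LINC library. Neither gene's groups overlapped. CACNG8, the most abundant gamma gene, had a log2 fold change of −0.19 (−0.59 to 0.21), so the gamma genes did not all have values of like size.

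The CLC family holds plasma membrane chloride channels and the chloride-proton exchangers of endosomes and lysosomes. Of 8 in the table, 6 were tested and none was called. CLCN7, the lysosomal exchanger, measured 35.8, 30.5 and 31.0 CPM in ASO_CTRL and 31.7, 30.8 and 39.6 CPM in ASO_LINC (log2 fold change 0.06, 95% confidence interval −0.28 to 0.40). CLCN6, named after its values were seen, was the only tested one without overlap, at 23.0, 27.0 and 23.8 CPM in ASO_CTRL and 17.05, 16.94 and 16.81 CPM in ASO_LINC (log2 fold change −0.54, adjusted p = 0.0347, edgeR quasi-likelihood test). Its exons overlap those of genes on the opposite strand.

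Transient receptor potential (TRP) genes encode cation channels opened by lipids, heat, osmotic change or calcium. TRPC4, TRPM7, TRPM4 and TRPV4 were tested and none was called. TRPC4, a receptor-operated channel, measured 16.97, 13.6 and 14.3 CPM in ASO_CTRL and 11.6, 8.21 and 10.3 CPM in ASO_LINC. The groups did not overlap (log2 fold change −0.57, adjusted p = 0.0675, edgeR quasi-likelihood test). TRPM7, a magnesium-permeable channel fused to a kinase, had a log2 fold change of 0.18 (−0.25 to 0.61), and TRPV4, an osmosensitive channel, one of −0.46 (−1.14 to 0.22). TRPC4AP, an adaptor that binds TRPC4 and is no channel, measured 83.9, 96.9 and 77.8 CPM in ASO_CTRL and 62.0, 54.4 and 72.4 CPM in ASO_LINC. It was not called with all 6 libraries (log2 fold change −0.46, adjusted p = 0.0593), and was called without ASO_LINC replicate 3 (−0.56, adjusted p = 0.00639).

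The 8 members with an adjusted p between 0.01 and 0.05 were KCNAB1, KCNJ4, KCNK6, CACNG4, CACNG6, CLCN6, SCN4B and SCN9A, of which 3 had higher and 5 lower values in ASO_LINC. The 22 members left untested, 12 potassium channel genes and 10 others, had 11 to 67 reads over all 6 libraries and at most 22 in any library. Their groups did not overlap in 6 genes, of which 5 were lower in ASO_LINC, KCNH5, KCNRG and CACNA2D1 among them. The share was 36.1% of all tested genes but was not taken over all untested genes. The count and its direction therefore have no like baseline and are not read as a result. With no filter on low counts, where 6.3% of all genes were called, edgeR called none of the 22, and the depth does not show whether they changed.

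How far the calls rest on single libraries differed between the genes. KCND3, KCNK1 and PIEZO2 were called in each of the 6 fits with 1 library left out. The count of called potassium channel genes went from 4 to 2 without any one of ASO_CTRL replicates 1, 2 and 3 and ASO_LINC replicates 1 and 2, since KCNN2 and KCNG1 lost their calls. Without ASO_LINC replicate 3 it was 5, with KCNJ4 added, and the count of other channel genes went from 1 to 4, with CACNG6, SCN9A and TRPC4AP added. Over all genes, the share called in that fit was 17.8%, against 7.54% with all 6 libraries, 3.41%, 3.53% and 2.53% without ASO_CTRL replicates 1, 2 and 3, and 2.93% and 3.62% without ASO_LINC replicates 1 and 2. With all 6 libraries and other tools or settings, the share of all genes called was 10.9% with DESeq2, 8.27% with limma-voom, 7.58% with DESeq2 size factors, 7.7% scaled by library size only and 7.2% with at least 10 counts in every library. It was 16.8% at an adjusted p below 0.05, 2.62% with a test against the fold change bound and 4.47% with the replicate number as a block.

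**Figure D3:**
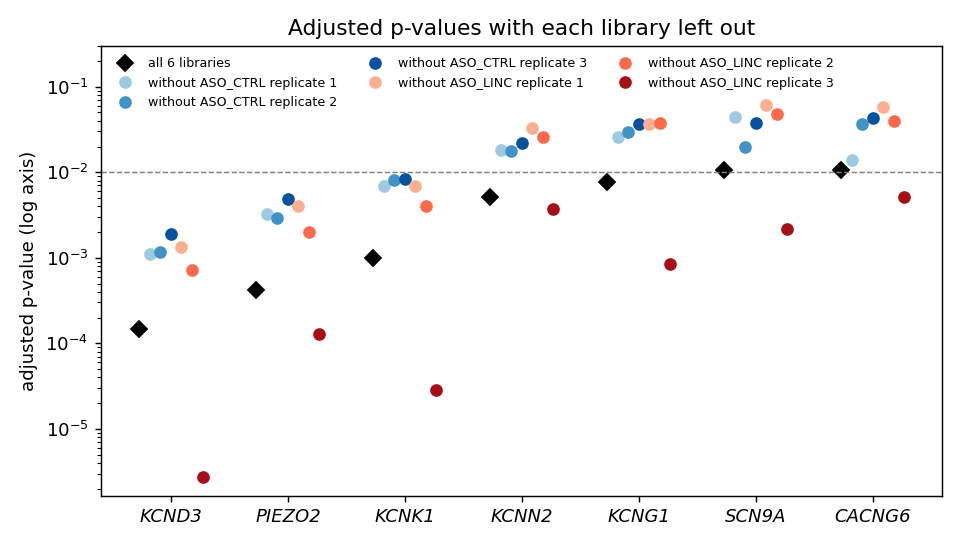
Adjusted p-value (log axis) from edgeR for the 5 called members and for SCN9A and CACNG6, with all 6 libraries (black diamonds) and with each library left out (blue, an ASO_CTRL library; red, an ASO_LINC library). The dashed line is the threshold of 0.01. All points of KCND3, PIEZO2 and KCNK1 lie under it, and for KCNN2 and KCNG1 the fit without ASO_LINC replicate 3 (darkest red) is the only one with a library left out that does.

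Channels outside the member names were taken from 14 lists of channel, pump and partner genes, 126 genes in all. Of these, 73 were in the table, 65 were tested and 11 were called (16.9%), 7 higher and 4 lower, beside 7.54% of all genes tested (4.91% higher and 2.63% lower). The calls went in both directions, as among the members. No gene was called among the 7 tested anoctamin, bestrophin and CFTR genes, the 4 of the ENaC and ASIC families, the 3 HCN, CNG and proton channels, or the 7 of the TRPA, TRPML, polycystin and endolysosomal tandem-pore list. The same held for the 2 tested genes of the NALCN complex, the 7 sodium-potassium and calcium pumps and the 5 TMEM63 and TMC genes.

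Genes of calcium handling were called in both directions. STIM1, the endoplasmic reticulum calcium sensor that opens ORAI channels, measured 40.5, 46.1 and 39.1 CPM in ASO_CTRL and 14.99, 17.3 and 21.7 CPM in ASO_LINC, a fall of 1.24 on the log2 scale (adjusted p = 0.000939, edgeR quasi-likelihood test). It was the only one of 5 store-operated entry genes called. ITPR3, an inositol trisphosphate receptor that releases calcium from that store, measured 113, 108 and 96.3 CPM in ASO_CTRL and 220.2, 207.8 and 220.1 CPM in ASO_LINC, a rise of 1.03 (adjusted p = 0.000406). SMDT1, a regulator of the mitochondrial calcium uniporter, fell by 0.75 on the log2 scale (adjusted p = 0.00829) and was 1 of 5 tested uniporter genes called. P2RX7, a cation channel opened by extracellular ATP, rose by 1.25 (adjusted p = 0.0096) from under 2 CPM.

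Volume-regulated anion channels are built from LRRC8 proteins around the obligatory subunit LRRC8A. Of 4 tested, 2 rose, on lists too short for their shares to be read against the 7.54% of all genes. LRRC8A measured 26.9, 27.4 and 33.2 CPM in ASO_CTRL and 58.6, 57.0 and 52.6 CPM in ASO_LINC (log2 fold change 0.94, adjusted p = 0.00162, edgeR quasi-likelihood test). LRRC8C measured 3.23, 2.41 and 2.58 CPM in ASO_CTRL and 10.9, 14.5 and 9.22 CPM in ASO_LINC (log2 fold change 2.08, adjusted p = 0.00045). Both had every ASO_LINC library above every control.

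Connexins form gap junctions between cells, and pannexins form channels in single membranes. Of 8 tested, 4 were called, again a short list beside 7.54% of all genes. GJA5 (connexin 40) measured 9.70, 9.29 and 10.9 CPM in ASO_CTRL and 1.32, 0.856 and 2.44 CPM in ASO_LINC, a fall of 2.79 on the log2 scale (adjusted p = 0.000268, edgeR quasi-likelihood test). GJB2 (connexin 26) rose by 1.46 and PANX1 by 0.78. GJA5 and GJB2 thus went in opposite directions. Of the 11 called genes of these lists, 5 kept their call in all 6 fits with 1 library left out, STIM1, ITPR3, LRRC8C and GJA5 among them.

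**Figure D4:**
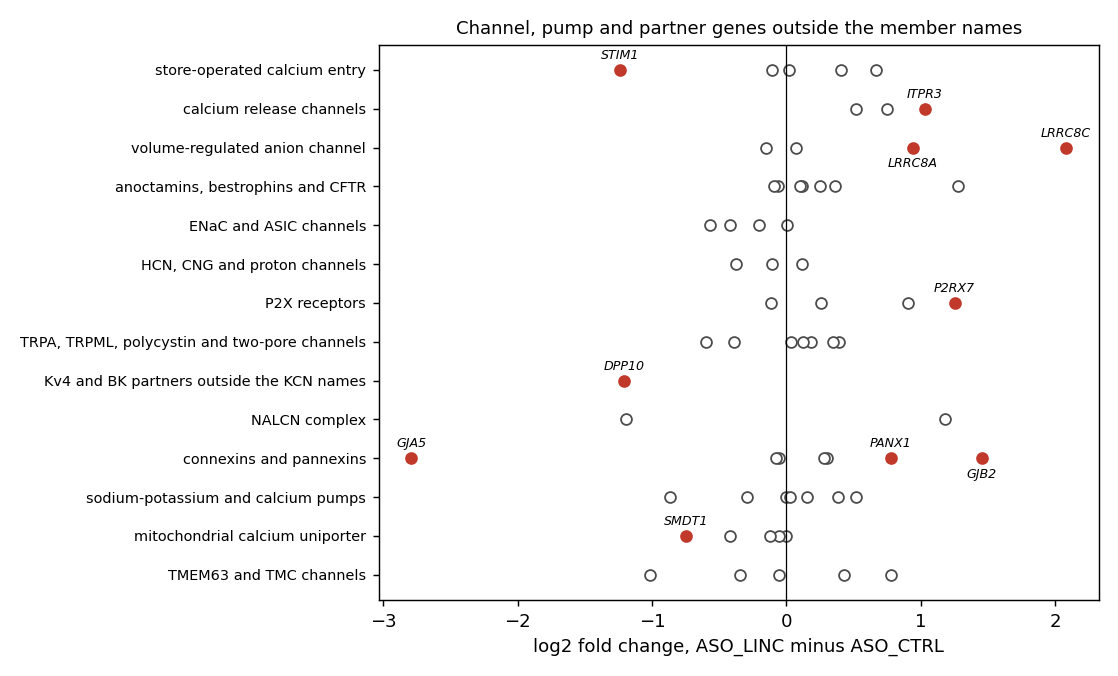
The log2 fold change (ASO_LINC minus ASO_CTRL) of 64 tested genes in 14 lists of channels, pumps and partners outside the member names, 1 row per list. Filled red points with names are 10 called genes, from GJA5 at −2.79 to LRRC8C at 2.08, and open points are the tested genes that were not called.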

How the data were processed

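Poly(A)-primed cDNA from total RNA of 6 H226 libraries, 3 per group, was sequenced by the authors as single-end reads of 75 bp and aligned with STAR to hg19. The deposited table holds raw read counts per gene as made by the authors, and its counting tool and strand setting are not given in the sources used here. Reads on no gene (24.8% to 28.1% of a library) and 4 rows that name no gene were left out. The counts were scaled by TMM, filtered with filterByExpr and tested with edgeR 4.0.16 (R 4.3.3, quasi-likelihood F-test, all 6 libraries in 1 fit), with Benjamini-Hochberg adjustment over 14660 genes. Members and lists were chosen with earlier results of these data known. Named are the called members, the most abundant tested member of each functional class, the members in KCND3's class with 10 or more reads in every library, and the called genes of the lists. Every other gene named was chosen after its values were seen.

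CPM are counts divided by the library's reads on the tested genes times its TMM factor, and scaled to 1e+06. All 68 members, and 13271 of all 17222 names, matched 1 gene of GENCODE lifted to GRCh37. Alternatives were DESeq2 1.42.0, limma-voom 3.58.1, other size factors, library size alone, other filters and thresholds, glmTreat, a replicate block and leaving out each library. On simulated counts of 14660 genes, the test called 53 of 100 genes given a log2 change of 1, 99 of 100 given a change of 2 and 0 unchanged genes. Some genes are not reported here.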

Additional observations from a re-analysis of the deposited data

How the results depend on the processing

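KCND3, KCNK1 and PIEZO2 were called under every alternative run. The 4 called potassium channel genes became 7 at an adjusted p below 0.05, 2 with glmTreat (a test against a log2 fold change of 0.5) and 2 to 5 with a library left out. The 1 other channel gene became 3 with DESeq2, 2 with at least 10 counts in every library, 6 at an adjusted p below 0.05 and 1 to 4 with a library left out. The 11 genes of the lists became 18 at an adjusted p below 0.05, 5 with glmTreat and 5 to 15 with a library left out. The cause was not tested. KCNN2 also missed the threshold with DESeq2 (adjusted p = 0.0107). Values near 0 changed sign. The log2 fold change of KCNMA1 was 0.0077 scaled by library size only, and that of PIEZO1 was −0.021 with limma-voom. With each library left out it lay between −0.12 and 0.33 for CACNB3, −0.052 and 0.14 for CLCN7, −0.13 and 0.66 for KCNH3, −0.25 and 0.15 for KCNMA1, −0.014 and 0.32 for KCNQ5, and −0.18 and 0.11 for PIEZO1. Of the other single-gene values, 512 kept their direction and side of the threshold, 53 lost the call and 15 gained it. Deviations from the group means, compared between libraries with the same replicate number, gave r = 0.06, −0.15 and −0.18 over genes. With 3 libraries per group, each set against its own group mean, this cannot show whether the numbers mark pairs. With the replicate block, 2 potassium channel genes, KCND3 and KCNK1, were called. Shallow libraries limit the genes under about 3 CPM, where single reads move the values.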
